A study of Mus musculus with 6 samples.

Results

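Trp53 and 9 genes that p53 activates or that act on it were examined in regulatory T cells (Tregs) with and without the zinc finger protein Zfp335. The 10 genes were taken by symbol from a table of 13709 gene rows. They were Trp53, Mdm2, Mdm4, Cdkn1a, Ccng1, Trp53inp1, Zmat3, Phlda3, Sesn2 and Gadd45a, and members of the Bcl2 family were left out. All 10 were in the table, and all 10 passed the filter on low counts. The samples were RNA-Seq libraries of CD4+YFP+CD25+ cells from C57BL/6 mice, 3 for each genotype. WT mice carried Foxp3Cre, in which the Foxp3 locus makes a Cre recombinase fused to YFP, and KO mice carried Foxp3Cre and Zfp335fl/fl, so that Zfp335 was deleted in cells that had turned on Foxp3. All mice were 2 weeks old per the methods, and the labels named no treatment. The paper reports lethal systemic inflammation in KO mice in early life, and it attributes the changed Treg signatures to inflammation. Loss of Zfp335 within the cell and an inflamed host cannot be told apart in these samples. The labels called the WT mice wild type littermates, while the methods give them the Foxp3Cre allele. The labels named both lymph nodes and spleen as the source, and they did not say how many mice made up a sample.

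The protein p53, encoded by Trp53, is a transcription factor that is held at low levels in unstressed cells and builds up after DNA damage, oncogene activity or ribosome stress. Mdm2 is the ubiquitin ligase that marks p53 for degradation, and it is itself switched on by p53, which closes a feedback loop. Mdm4 is a relative of Mdm2 that binds p53 and blocks its activity. Targets of p53 stop the cell cycle (Cdkn1a), dampen survival signals (Phlda3), restrain growth (Sesn2) and bind RNA (Zmat3). In T cells p53 is known to restrain proliferation after antigen recognition. Much of the control of p53 is at the level of the protein, which counts of RNA do not measure.

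The sequences near the starts of these genes that match the p53 pattern are shown first, since p53 acts on its targets by binding DNA. Sequence farther from the starts or inside the genes was not searched. p53 binds DNA as a tetramer at a pair of 10-base half-sites. RefSeq promoter windows of 300 bases, from 250 before to 50 after a transcription start (GRCm38.p6, the assembly that mm10 denotes), were given for 8 of the 10 genes. Zmat3 and Trp53inp1 had none. An adjacent pair of half-sites, with at most 1 of its 20 letters off the p53 pattern, was found in the windows of Cdkn1a and Ccng1 and in 22 of 32851 windows in all (0.067%). The tolerance for 1 letter was chosen after the Cdkn1a window had been read. The pattern is its own reverse complement, so a search of 1 strand covers both. The upstream part of the Cdkn1a window is shown because this gene had the largest change, with the pair in capitals (chr17:29090729-29090978, plus strand). A second RefSeq start of Cdkn1a lies 2790 bases downstream.
Cdkn1a: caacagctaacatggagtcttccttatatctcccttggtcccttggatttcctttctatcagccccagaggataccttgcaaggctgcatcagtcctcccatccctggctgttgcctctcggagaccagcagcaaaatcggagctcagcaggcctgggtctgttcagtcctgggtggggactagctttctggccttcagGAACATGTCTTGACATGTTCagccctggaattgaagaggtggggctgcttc
The pair of Ccng1 is shown with 10 bases on each side (chr11:40755452-40755491, minus strand), and it begins 195 bases before the start of that gene.
Ccng1: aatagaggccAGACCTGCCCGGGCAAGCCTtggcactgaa

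A single half-site with no letter off the pattern was present in 8.36% of all windows. Counted by gene and not by window, such a half-site was present for 5 of these 8 genes, which had 10 windows in all. Besides Cdkn1a and Ccng1 these were Trp53, Mdm2 and Gadd45a, shown with 10 bases on each side and the half-site in capitals. They lie at chr11:69580274-69580303 on the plus strand, chr10:117710925-117710954 on the minus strand and chr6:67037428-67037457 on the minus strand.
Trp53: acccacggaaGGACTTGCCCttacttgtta
Mdm2: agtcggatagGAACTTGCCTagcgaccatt
Gadd45a: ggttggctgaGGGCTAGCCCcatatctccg
The windows of Mdm4, Phlda3 and Sesn2 held none, which says only that these letters are not in these windows. The genes with and without a match both included genes that were higher and genes that were lower in KO. A match is a description of the letters and does not show that p53 was bound there.

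The libraries held 32032631 to 40728419 counts, and each of the 10 genes had at least 66 counts in every sample. Expression is given as CPM, the count relative to the TMM-scaled library total. The targeted gene checked the labels, since Zfp335 fell from 99.4 ± 4.50 CPM in WT to 38.3 ± 1.66 CPM in KO (SD, n = 3, log2 fold change -1.37, edgeR adjusted p 2.14e-05). Pcif1 and Zfp335os, on the opposite strand, share 1107 and 234 bases with Zfp335 exons. Strand use was not given, so the counts of Zfp335 are uncertain to that extent. WT replicate 3 stood apart from the other WT samples, and values without it are given where leaving it out changed a call of a named gene or moved a called value by over 1.5-fold. The Treg markers Foxp3, Il2ra, Ctla4, Ikzf2, Cd4 and Cd3e were all present, with a summed level of 3927 to 5104 CPM in WT and 3309 to 3405 CPM in KO, and Foxp3 and Ikzf2 were called lower in KO. The call of Foxp3 rested on WT replicate 3, which had 1190 CPM against 738 and 642 CPM in the other WT samples, and it was lost without that sample (log2 fold change -0.57). Without WT replicate 3, the markers called were 1 Treg, 1 B cell, 3 myeloid, 3 CD8 T and NK cell, 1 plasma cell and 2 erythroid. Markers of other cell types were far below these levels but not at 0. Summed over 5 myeloid markers, WT had 16.7 to 28.01 CPM and KO had 47.4 to 55.0 CPM, with 4 of them called higher. Ly6g and Mpo were not analysed here. Of 5 B cell markers, summed at 17.99 to 20.1 CPM in WT and 12.1 to 12.6 CPM in KO, 1 was called lower. Of 5 CD8 T and NK cell markers, summed at 12.9 to 19.04 CPM in WT and 26.96 to 28.9 CPM in KO, 3 were called higher. Of 4 plasma cell markers, summed at 28.01 to 63.0 CPM in WT and 39.3 to 44.9 CPM in KO, 2 were called higher. Of 4 erythroid markers, summed at 16.3 to 69.2 CPM in WT and 29.3 to 35.5 CPM in KO, edgeR called 0 and none had an unadjusted p under 0.05. DESeq2 called 1 of them, and without WT replicate 3 edgeR called 2. The part of such cells in the values below was not tested. In bulk samples, fewer cells of a type and less RNA per cell cannot be told apart.

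To see how the p53 genes differed between genotypes, KO was compared with WT over all genes. Calls needed more than a 1.5-fold difference together with p under 0.05 and an adjusted p under 0.1. Of the 10 genes, Cdkn1a, Phlda3 and Zmat3 were called higher in KO and Trp53inp1 was called lower, while 6 were not called. Among all 13594 genes tested, 24.4% were called, with 11.9% higher and 12.5% lower. The median log2 fold change of the 10 genes was 0.33, against -0.04 over all genes tested. KO and WT values did not overlap for 9 of the 10 genes, 6 higher and 3 lower in KO. This was so for 53.8% of all genes tested, with 26.2% higher and 27.6% lower. By an adjusted p under 0.1 alone, 9 of the 10 genes passed, and 47.0% of all genes did. The 4 genes called did not move in a common direction. Trp53 RNA was itself lower in KO, by less than the fold cutoff. The p53 protein was not measured, and its part in these differences was not tested.

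**Figure D1:**
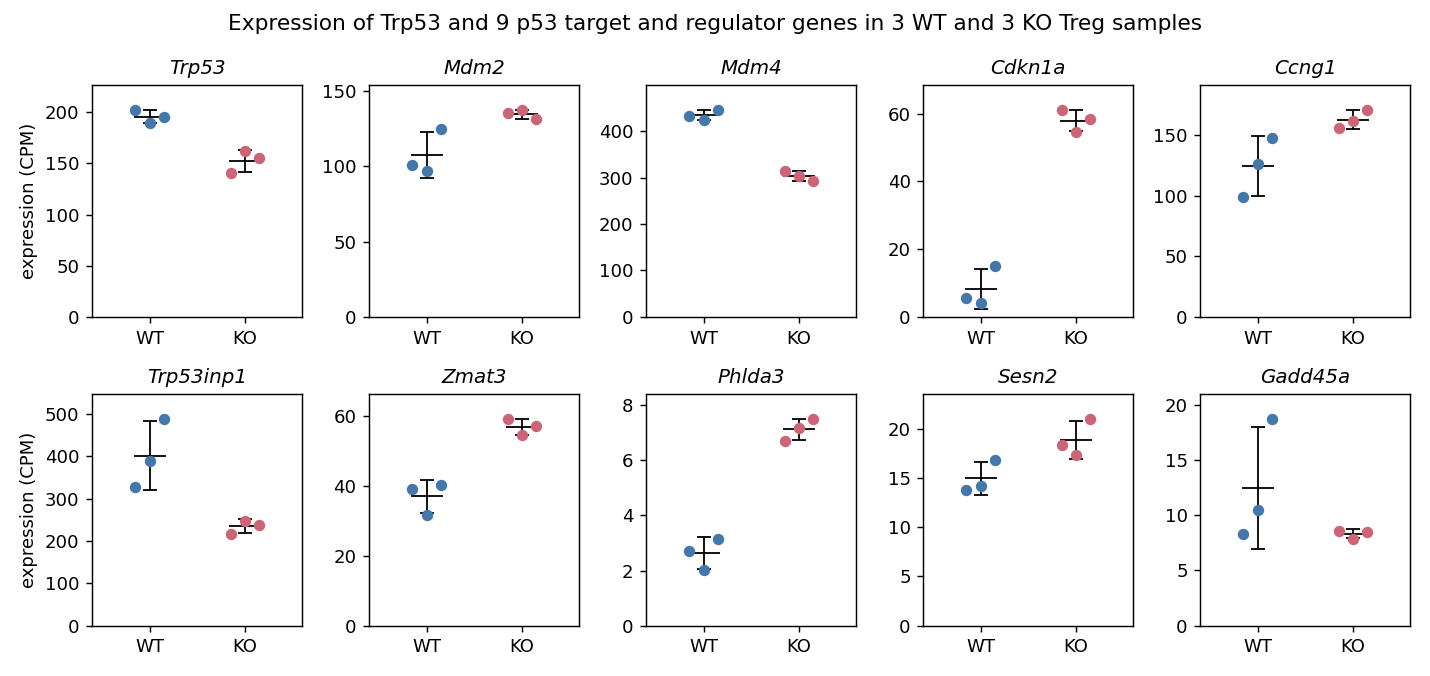
Expression of the 10 genes in CPM (vertical axes, each starting at 0) in 3 WT samples (blue) and 3 KO samples (red), with the mean and SD as a black cross and bars. Cdkn1a, between 4.08 and 14.96 CPM in WT and between 54.6 and 60.98 CPM in KO, has the largest fold difference between genotypes. The Gadd45a panel is the one in which the genotypes overlap.

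Trp53 lies on chromosome 11 at 69580359 to 69591873. In the order of replicates 1 to 3, which is kept throughout, the WT samples had 202.5, 189.6 and 195.2 CPM and the KO samples had 141.0, 162.2 and 155.0 CPM. The highest KO value was under the lowest WT value. KO had 78.0% of the WT level, a log2 fold change of -0.36 (with an SE of 0.07 and an edgeR adjusted p of 0.00700), which passed the cutoffs on p but was smaller than the fold cutoff. The 95% confidence interval of the log2 fold change was -0.53 to -0.19. A processed pseudogene, Trp53-ps, resembles the transcript, so a small part of the reads may have been placed there.

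The pair of p53 inhibitors moved apart. Mdm2, on chromosome 10 at 117688875 to 117710758, had 101.1, 96.6 and 124.8 CPM in WT and 135.2, 137.2 and 131.3 CPM in KO. The log2 fold change was 0.32 (with an SE of 0.10 and an edgeR adjusted p of 0.0367), under the fold cutoff, and WT replicate 3 lay nearest to the KO samples. Mdm4, on chromosome 1 at 132959484 to 133030561, had 431.7, 425.1 and 446.2 CPM in WT and 313.9, 303.3 and 292.9 CPM in KO. Its log2 fold change was -0.52 (with an SE of 0.06 and an edgeR adjusted p of 0.000703), the smallest adjusted p of the 10 genes, and the interval of -0.66 to -0.37 reached the fold cutoff of 0.58 on this scale. Mdm4 also has a processed pseudogene, Mdm4-ps. Since these genes are relatives with opposite differences, their ratio was taken within each sample, where the scaling of libraries cancels. Per kb of exon, the ratio of Mdm2 to Mdm4 was 0.682, 0.661 and 0.814 in WT and 1.25, 1.32 and 1.31 in KO. The ratio was thus under 1 in every WT sample and over 1 in every KO sample. This crossing depends on the lengths used, which were 14.8 kb for Mdm4 over all annotated transcripts and 5.08 kb for Mdm2. In CPM, Mdm4 was above Mdm2 in every sample, so which RNA was more abundant in KO cannot be told.

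Cdkn1a, which encodes the cyclin-dependent kinase inhibitor p21, had the largest difference of the 10 genes. It lies on chromosome 17 at 29090976 to 29100727. It had 5.51, 4.08 and 14.96 CPM in WT and 60.98, 54.6 and 58.3 CPM in KO, or 134 to 498 counts in WT and 2056 to 2228 counts in KO. The KO samples lay close together and every one was above every WT sample, but WT replicate 3 had more Cdkn1a RNA than either of the other WT samples. WT had a mean of 8.18 ± 5.91 CPM and KO one of 58.0 ± 3.19 CPM, a 7.08-fold difference (log2 fold change 2.83 with an SE of 0.43 and an edgeR adjusted p of 0.00182). Without WT replicate 3 the log2 fold change was 3.58 and the WT mean was 4.80 CPM. A transcript of unclear status on the opposite strand, AC167363.2, shares 273 bases with Cdkn1a exons, so the count is uncertain to that extent.

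Phlda3 encodes a small protein with a pleckstrin homology domain that competes for membrane lipids with the kinase Akt, and it lies on chromosome 1 at 135766119 to 135769136. It was a weakly expressed gene, at 2.72, 2.01 and 3.15 CPM in WT and 6.71, 7.17 and 7.49 CPM in KO, or 66 to 288 counts per sample. The groups did not overlap, and the log2 fold change was 1.44 (with an SE of 0.22 and an edgeR adjusted p of 0.00189), a 2.71-fold difference. Zmat3, also called Wig1, encodes an RNA-binding zinc finger protein and lies on chromosome 3 at 32334792 to 32366014. It had 39.1, 31.7 and 40.4 CPM in WT and 59.2, 54.4 and 57.0 CPM in KO. Its log2 fold change of 0.62 (with an SE of 0.11 and an edgeR adjusted p of 0.00295) lay just above the fold cutoff. Zmat3 fell under that cutoff without WT replicate 2, at 0.51, with library totals in place of TMM scaling, at 0.581, and with offsets for GC content and length, at 0.584. Over the alternatives its adjusted p was at most 0.0190, except for glmTreat, a test against a fold change of 1.5, where it was 0.674.

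Ccng1 and Sesn2 were higher in KO by less than the fold cutoff. Ccng1 encodes cyclin G1, which recruits a phosphatase to Mdm2, and lies on chromosome 11 at 40748552 to 40755311. Its values spread widely in WT, at 99.2, 126.8 and 148.1 CPM, and were 155.9, 161.6 and 171.2 CPM in KO. The log2 fold change was 0.39 (with an SE of 0.14 and an edgeR adjusted p of 0.0563), with a 95% interval of 0.07 to 0.70, so a change past the fold cutoff lay within it. Sesn2 encodes sestrin 2, a stress-induced inhibitor of mTORC1 signaling, and lies on chromosome 4 at 132492032 to 132510501. It had 13.8, 14.2 and 16.9 CPM in WT and 18.3, 17.3 and 21.02 CPM in KO (log2 fold change 0.33 with an SE of 0.13 and an edgeR adjusted p of 0.0747, 95% interval 0.04 to 0.63). For both genes the highest WT sample, replicate 3, was close to the lowest KO sample. Over the alternatives other than glmTreat the adjusted p reached 0.162 for Ccng1, 0.255 for Sesn2 and 0.114 for Mdm2, and glmTreat gave 1 for all of them.

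Trp53inp1, which encodes a p53-induced nuclear protein that promotes cell death and autophagy, was the target that was called lower. It lies on chromosome 4 at 11156431 to 11174379. Expression was 327.0, 387.9 and 488.8 CPM in WT and 216.4, 248.1 and 238.6 CPM in KO. The groups did not overlap, and KO had 58.4% of the WT level (log2 fold change -0.78 with an SE of 0.14 and an edgeR adjusted p of 0.00402). Without WT replicate 3 the log2 fold change was -0.61 and the call held. Gadd45a encodes a stress sensor of the Gadd45 family and lies on chromosome 6 at 67035096 to 67037457. It had 8.29, 10.5 and 18.8 CPM in WT and 8.59, 7.84 and 8.51 CPM in KO, so the groups overlapped and the WT mean rested on replicate 3. The log2 fold change was -0.59 (with an SE of 0.29 and an edgeR adjusted p of 0.143), and it was -0.18 without WT replicate 3. Without WT replicate 1 Gadd45a was called lower, at -0.81 (adjusted p 0.0462). E230016M11Rik, a transcript on the opposite strand, shares 337 bases with Gadd45a exons.

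**Figure D2:**
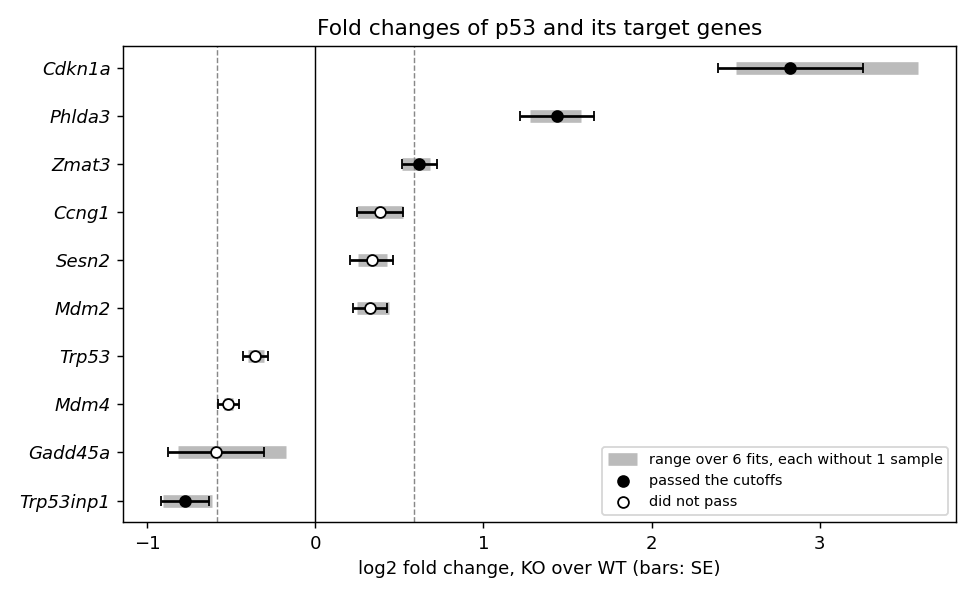
Log2 fold change of KO over WT (horizontal axis) for the 10 genes, with the SE as bars. Grey bands give the range over 6 fits that each left out 1 sample, and dashed lines mark a fold change of 1.5. Filled points passed the cutoffs. Cdkn1a has the widest grey band, from 2.50 to 3.58, and no band crosses 0.

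Levels were compared between the genes per kb of exon, since longer transcripts give more reads. In WT the order of mean levels in CPM per kb was Trp53inp1 at 62.0, Trp53 at 48.4, Ccng1 at 35.5, Mdm4 at 29.4, Mdm2 at 21.1, Gadd45a at 7.09, Sesn2 at 4.30, Zmat3 at 3.24, Cdkn1a at 2.30 and Phlda3 at 1.68. The sample ranges of Ccng1 and Mdm4, of Gadd45a and Sesn2, of Zmat3 and Cdkn1a, and of Cdkn1a and Phlda3 overlapped in WT, so these neighbors in the order are not separated. In KO, Ccng1 was highest, at 46.4 CPM per kb, followed by Trp53 at 37.8 and Trp53inp1 at 36.2, whose ranges overlapped. Cdkn1a, at 16.3 CPM per kb, had moved from the ninth place to the sixth, above Sesn2 at 5.43, Zmat3 at 4.98 and Gadd45a at 4.71. Phlda3 had the lowest mean in both genotypes, at 4.57 CPM per kb in KO. In KO the ranges of Sesn2 and Zmat3, of Zmat3 and Gadd45a, and of Gadd45a and Phlda3 overlapped, so these neighbors are not separated either. As exons of all annotated transcripts were counted, genes with many isoforms, such as Mdm4 with 14.8 kb, are given lower levels per kb than their main transcript has.

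Among genes of the lists used here, the profile over the 6 samples nearest to that of Trp53 was that of Atr, followed by Mdm4 and Tnfrsf10b. The measure was the Euclidean distance of log2 CPM values centered on their mean, which was 0.23, 0.29 and 0.33, over 116 genes. The profiles nearest to Cdkn1a were those of Eomes, Trp73 and the myeloid marker Itgam, at distances of 1.14, 1.40 and 1.53. Eomes encodes a T-box factor of cytotoxic lymphocytes and Itgam an integrin chain. These genes share the same 6 libraries and the same difference between genotypes, so nearness says little beyond the size of that difference.

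A further 30 p53 targets were listed, of which 27 were tested. Eda2r, Gdf15 and Ak1 were not analysed here. Called genes were 3 higher and 6 lower in KO, and 18 were not called, so 33.3% of the tested genes were called, against 24.4% of all genes. The balance of directions depended on the setting, with 6 higher and 6 lower by DESeq2, 5 and 6 with RLE scaling, 3 and 8 with library totals, and 5 and 5 without WT replicate 3. The median log2 fold change was 0.05. The rises were in Ckap2, which encodes a spindle protein, from 12.0 ± 2.66 to 41.4 ± 1.08 CPM (log2 fold change 1.79), in Apaf1, the scaffold of the apoptosome, from 48.5 ± 0.44 to 115 ± 5.50 CPM (1.25), and in Pidd1, a death domain protein, from 35.7 ± 10.45 to 60.9 ± 1.73 CPM (0.77). Pidd1 was under the fold cutoff without WT replicate 3, at 0.54. The largest falls were in Ephx1, Sesn1, Fdxr and Btg2. Ephx1, an epoxide hydrolase, fell from 204 ± 13.4 to 46.0 ± 0.82 CPM (log2 fold change -2.15, edgeR adjusted p 4.24e-06). Sesn1, the sestrin most tied to p53, had 115.8, 109.9 and 143.3 CPM in WT and 44.3, 40.3 and 39.9 CPM in KO (log2 fold change -1.57, adjusted p 6.77e-05). Fdxr, which passes electrons to mitochondrial P450 enzymes, fell from 49.6 ± 6.50 to 25.8 ± 1.74 CPM (-0.94). Btg2, an antiproliferative gene, went from 167 ± 53.6 to 104 ± 3.57 CPM (-0.69), and it was under the fold cutoff without WT replicate 3, at -0.40.

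Genes that act on p53 were compared next. Of 23 regulators tested, 3 were called higher, 1 was called lower and 19 were not called, so 17.4% were called, beside 24.4% of all genes, and the median log2 fold change was 0.04. Cdkn2a had the largest value. This locus makes the CDK inhibitor p16Ink4a and, from another first exon, p19Arf, which binds Mdm2 and frees p53, and counts per gene do not tell these transcripts apart. It had 0.706, 0.518 and 0.0901 CPM in WT and 9.14, 12.1 and 10.4 CPM in KO, or 26, 17 and 3 counts against 334, 485 and 367 (log2 fold change 4.56 with an SE of 0.51 and an edgeR adjusted p of 0.000483). The KO and WT samples did not overlap. The checkpoint kinase genes Chek1 and Chek2 rose, by 1.17 and 0.81 on the log2 scale, from 13.8 ± 4.45 and 8.51 ± 2.95 CPM in WT. Both were lowest in WT replicate 3, and Chek2 was under the fold cutoff without it, at 0.58. Ppp1r13b encodes ASPP1, a cofactor that directs p53 to genes of cell death. It fell from 77.1 ± 11.9 to 38.6 ± 2.69 CPM (log2 fold change -0.999, edgeR adjusted p 0.000638).

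Relatives of the 10 genes were examined to see whether family members moved together. Trp63 and Phlda2 were not analysed here. Of 10 relatives tested, 3 were called higher, 1 was called lower and 6 were not called, and the median log2 fold change was -0.11. The share called was 40%, beside 24.4% of all genes. With library totals, without WT replicate 1 or without KO replicate 2, 2 were called higher and 3 lower, so no direction can be given for these relatives. Trp73, the relative of Trp53 that binds the same DNA sites, had 6, 11 and 24 counts in WT and 133, 218 and 150 in KO, or 0.406 ± 0.286 and 4.44 ± 0.91 CPM (log2 fold change 3.45 with an SE of 0.51 and an edgeR adjusted p of 0.00155). WT replicate 3 was the highest WT sample, and the value without it was 4.15. Gadd45g rose from 19.7 ± 5.78 to 55.5 ± 2.18 CPM (1.496, adjusted p 0.000774). Trp53inp2 was called higher at 0.61 (adjusted p 0.0577), and the call was lost without WT replicate 1, WT replicate 2, KO replicate 1 or KO replicate 2, at 0.57, 0.44, 0.58 and 0.56. The relative called lower was Sesn1. Without WT replicate 3, 7 relatives were called in place of 4. The added calls were Gadd45b, whose log2 fold change went from 0.39 to 1.59, Sesn3, from -0.58 to -0.67, and Cdkn1c, from -0.581 to -0.592.

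Ratios within samples put each family side by side, and no library scaling enters them. The 8 pairs were chosen after the values were seen, and in each the gene written first was set so that the ratio is higher in KO, so neither the common direction nor the number of pairs without overlap is a result, and no test is given. Sesn3, Cdkn1c and Gadd45b were not paired. The sizes are a description. The ratio in KO was higher by 1.80-fold for Mdm2 to Mdm4, 11.2-fold for Cdkn1a to Cdkn1b, 1.55-fold for Ccng1 to Ccng2 and 2.75-fold for Phlda3 to Phlda1. It was higher by 2.65-fold for Trp53inp2 to Trp53inp1, 3.72-fold for Sesn2 to Sesn1, 4.10-fold for Gadd45g to Gadd45a and 16.5-fold for Trp73 to Trp53. In CPM per kb, the ratio of Sesn2 to Sesn1 was 0.137, 0.148 and 0.135 in WT and 0.473, 0.491 and 0.604 in KO. Sesn1 therefore had more RNA per length than Sesn2 in every sample, by a smaller margin in KO. The ratio of Cdkn1a to Cdkn1b, the gene of p27, was 0.0416, 0.0255 and 0.0717 in WT and 0.569, 0.414 and 0.457 in KO.

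**Figure D3:**
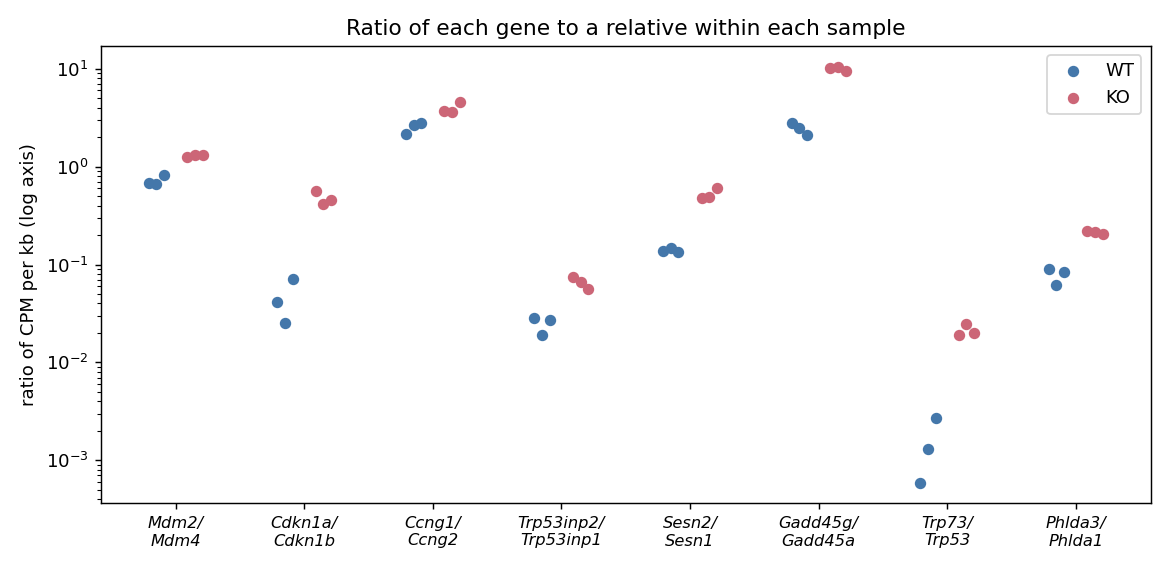
Ratio of the level per kb of each gene to that of a relative (vertical axis, log scale) in 3 WT samples (blue) and 3 KO samples (red). The pairs were chosen, and the gene on top of each ratio set, so that KO lies above WT. The sizes range from 1.55-fold to 16.5-fold. The ratio of Mdm2 to Mdm4 goes from under 1 in WT to over 1 in KO, a crossing that depends on the exon lengths used.

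The last list held cell cycle genes that p53 is known to lower through p21 and the DREAM repressor complex. All 20 were called higher in KO, against 11.9% of all genes tested, and the median log2 fold change was 1.83. The list was chosen with earlier results of these data known, and its genes share the cell cycle. The 20 calls are thus a description and not 20 separate results. The largest rises were in Bub1, Ccna2, Mki67 and Mybl2, with log2 fold changes of 2.18, 2.11, 2.09 and 2.06. Mki67, which encodes the proliferation antigen Ki-67, had 441, 445 and 199 CPM in WT and 1568, 1549 and 1507 CPM in KO. Summed over the list, WT had 689 to 1498 CPM and KO had 4226 to 4364 CPM. Cdkn1a RNA and this list were thus both higher in every KO sample. Within WT they did not go together, since replicate 3 had the most Cdkn1a RNA and the least Mki67 RNA. Chek1 is in both this list and that of the regulators. The part of the cell cycle in the differences of the p53 genes was not tested.

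**Figure D4:**
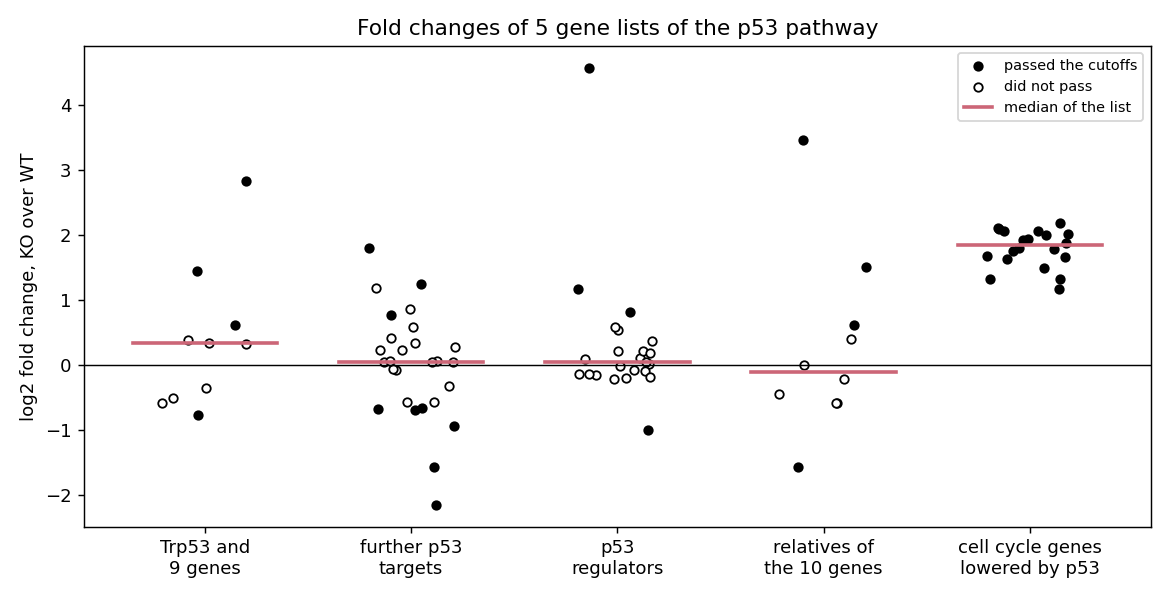
Log2 fold change of KO over WT (vertical axis) for each gene of 5 lists, with filled points for genes that passed the cutoffs and a red line at the median of the list. The first 4 lists hold genes on both sides of 0, and the 20 cell cycle genes lie between 1.17 and 2.18.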

How the data were processed

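According to the methods, SOAPnuke removed poor reads, HISAT2 placed the rest on mm10 with 1 position reported for each, and StringTie quantified transcripts. The authors deposited whole-number counts per gene without normalization; how they were made, strand use and annotation were not given in the sources used here. No gene had fewer than 60 counts in total, so weakly expressed genes are missing from the table. Duplicate symbols were kept as separate rows.

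Counts were tested with R 4.3.3 and edgeR 4.0.16 (filterByExpr with a minimum count of 10, TMM scaling with factors from 0.980 to 1.037, glmQLFit and glmQLFTest, KO versus WT, no covariate, two-sided, Benjamini-Hochberg adjustment over 13594 genes; 115 were removed). The cutoffs are the study's. SE is the log2 fold change divided by the square root of F. The procedure was tested on simulated counts. P-values weigh the difference between genotypes against the spread between samples, which may be technical in part. At these depths 3 counts are 0.0737 to 0.0937 CPM by library total, which covers counting error only.

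GENCODE M21 gave gene positions, exons, GC content and length (the latter pair for 97.9% of symbols), and promoters from RefSeq (GRCm38.p6). Setd8 was matched as Kmt5a. Ratios of relatives were described without a test. Alternatives were DESeq2 1.42.0, RLE or no scaling, other filters and cutoffs, GC and length offsets, a replicate block, and leaving out each sample. The 10 genes and all lists were chosen with earlier results of these data known. Named are the 10 genes, Zfp335 and the 4 largest called rises and falls of each list. Genes that share exon bases with the 10 genes or Zfp335, and the 3 nearest profiles, were also named. Other relatives were named after their values were seen.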

Additional observations from a re-analysis of the deposited data

How the results depend on the processing

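No gene of the 10 changed direction under any setting run. Zfp335, Cdkn1a and Phlda3 were called in all 15 alternatives, Trp53inp1 in 14 and Zmat3 in 11. With DESeq2, with RLE scaling or unscaled library totals, without a filter, with at least 10 counts in every sample, or with GC and length offsets, 3 or 4 of the 10 genes were called. With those offsets Zmat3 dropped out and Gadd45a was called lower (-0.70). Calling by an adjusted p under 0.05 and dropping the fold cutoff gave 7 of the 10 genes, 14 further targets, 8 regulators and 5244 genes in all. glmTreat against a fold change of 1.5 called 2 of the 10 (Cdkn1a and Phlda3), 5 further targets and 1686 genes in all. Here the cutoff itself sets the number. When each of the 6 samples was left out, 3 to 5 of the 10 genes were called, 9 to 12 further targets, 4 to 5 regulators, 3 to 7 relatives, 20 cell cycle genes and 2867 to 3667 genes in all, and Zfp335 ranged from -1.42 to -1.35. The highest counts of relatives and of all genes came without WT replicate 3, and the cause was not tested. Deviations of same-numbered samples had correlations of 0.073, 0.028 and -0.0006, while 4 of 6 samples were closest to their own number. Whether the numbers mark a shared batch was not tested. With the replicate block 3190 genes were called, 4 of the 10 among them. Depth does not limit the 10 genes, but in WT the counts of Trp73 and Cdkn2a are small enough that their folds are imprecise.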
